A study of Mus with 8 samples.

Results

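The genes described here encode 10 cytokines that drive or restrain inflammation, followed in whole subcutaneous MC38 tumours: Il1a, Il1b, Il1rn, Il6, Tnf, Il10, Il18, Il33, Osm and Lif. The genes were chosen by name. Their probes were found by RefSeq transcript, which gave 16 probes for 10 genes out of 45616 genes and transcripts on the array. MC38 is a mouse colon cancer cell line, and it was transplanted into 4 hosts labelled Ext1S100a4Cre (Ext1 flox/flox; S100a4-Cre) and 4 wild-type (WT) hosts, all labelled B6. Tumours were taken 25 to 30 days later, and total RNA of the whole tumour was hybridised to a 1-colour Agilent array, 1 tumour per array.

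Ext1 encodes a polymerase that builds heparan sulfate, a sulfated polysaccharide of cell surfaces and matrix. S100a4 is active in fibroblasts and also in some immune cells, so the Cre could act in more than 1 kind of host cell. The transplanted MC38 cells were the same line in both hosts, so the floxed gene lay in host cells alone. Host age and sex were not given in the labels. The design gave 4 mice per host, with no word on litters or transplant days, so the p-values measure only the spread between these tumours.

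Most of the cytokines fall into families that share a signalling route. IL-1α, IL-1β, IL-18 and IL-33 belong to the IL-1 family, whose receptors signal through MyD88 to NF-kB, and the receptor antagonist made from Il1rn blocks the IL-1 receptor. IL-6, oncostatin M and leukaemia inhibitory factor signal through gp130 to STAT3, TNF acts through its own receptors, and IL-10 restrains macrophages through STAT3. In tumours, myeloid cells are the usual source of IL-1β, TNF, oncostatin M and IL-10, while fibroblasts commonly make IL-6 and IL-33.

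Every level below is the log2 processed signal of a probe minus the 75th percentile of its array, and every difference is the Ext1S100a4Cre host minus the WT host. Levels of different probes cannot be set against each other. A spot is called well above background by the scanner software's own flag. The 75th percentile was 847 to 1138 intensity units on the Ext1S100a4Cre arrays and 1029 to 1265 on the WT arrays. The share of probes well above background was 65.7% to 70.9% on the Ext1S100a4Cre arrays and 68.8% to 71.1% on the WT arrays. The 75th percentile and this share were lowest on the arrays of Ext1S100a4Cre tumours 1 (855, 65.7%) and 4 (847, 66.0%). Whether this bears on the cytokine differences was not tested. Ext1S100a4Cre tumours 1 and 4 stood apart in Y-linked signal too. Of 6 probes for the Y-linked genes Uty, Eif2s3y, Ddx3y and Kdm5d that were bright on some array, none was well above background in either. In Ext1S100a4Cre tumours 2 and 3 and in the WT tumours, 5 of those 6 probes were well above background throughout. Of 6 epithelial markers, 5 were well above background on all 8 arrays, among them Epcam, Krt8 and Cdx2, and Cdx1 was so on 7. Ext1 itself averaged -0.46 ± 0.15 in the Ext1S100a4Cre host and -0.18 ± 0.33 in the WT host (SD, n = 4 each), a difference of -0.28 with an adjusted p of 0.747 in limma. Whether its probe lies in the deleted part is not given, so it does not check the genotype.

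All 9 cytokine genes bright enough to be tested had a lower mean in the Ext1S100a4Cre host, and none of the 9 differences passed the test. Il33 and Il1b had the largest differences, and Il1b was the gene whose groups did not overlap. WT tumour 3 had the highest level of all 9, while Ext1S100a4Cre tumour 1 had the lowest level of Il33 and Osm and was not well above background for Il6 and Il10. A lower mean was found for 41.9% of the 31281 genes tested, and the median difference of the 9 cytokine genes was -0.90, against 0.05 over all genes. At least a 2-fold lower mean was found for 3 of the 9 (Il33, Il1b and Il18), and for 3.61% of all genes, with 5.03% at least 2-fold different in either direction. In bulk tumours, fewer cells of a type and less RNA per cell cannot be told apart.

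Limma called 0 of the 9 genes at an adjusted p of 0.05, and 0% of all genes. Their adjusted p lay between 0.747 and 0.867. At an unadjusted p under 0.05 there were 0 of 9, while 6.55% of all genes had such a p, 2.16% with a lower and 4.39% with a higher mean in the Ext1S100a4Cre host. Under the alternative settings 0 to 3 of the genes tested had such a p. The 95% intervals of all 9 differences included 0. Exact two-sided permutation tests over the 70 assignments of 4 of 8 tumours gave p from 0.0286, the smallest this design allows, to 0.629 for the 10 genes, and 0.286 to 0.629 after Benjamini-Hochberg adjustment over them. Within each slide row, which held 2 tumours of either host, all 10 genes had a lower mean in the Ext1S100a4Cre host (differences of -1.93 to -0.21 in row 1 and -2.37 to -0.50 in row 2). Row 1 held Ext1S100a4Cre tumour 1, lowest for 4 of the 10, and row 2 held WT tumour 3, highest for all 10. WT tumour 3 thus moved every difference in row 2 downward. In row 1 this held for some genes only. Ext1S100a4Cre tumour 1 lay above tumour 2 of its host for Il1b (-2.47 against -2.95) and Il1rn (-1.39 against -3.31). The 10 include Il1a, mostly at background, and the share of all genes lower in both rows was not computed.

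**Figure D1:**
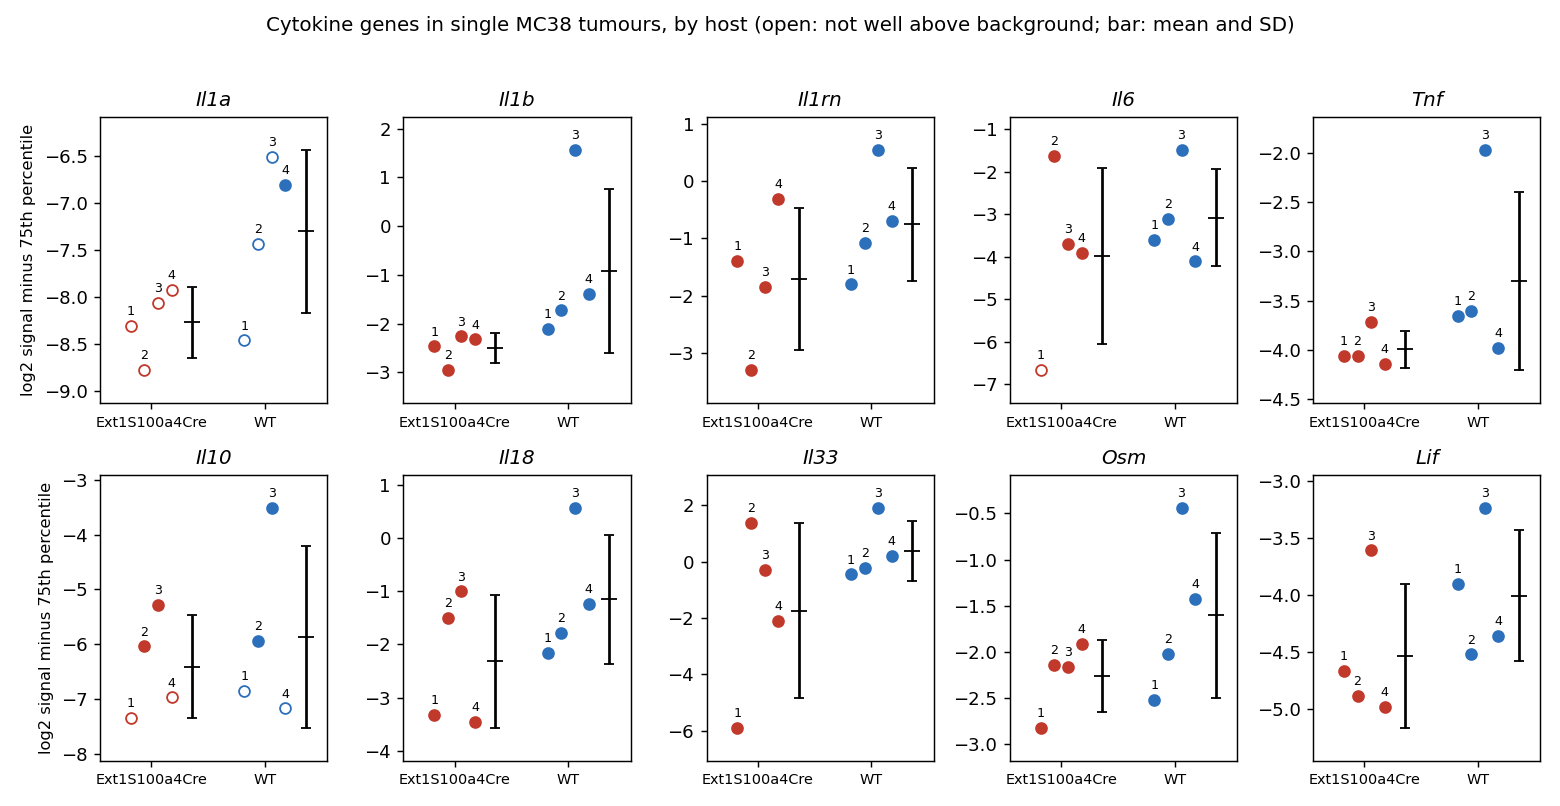
Level of each cytokine gene (y axis, log2 signal minus the array's 75th percentile) in each numbered tumour, Ext1S100a4Cre host in red and WT host in blue. Open circles were not well above background, and bars give the mean and SD of 4 tumours. WT tumour 3 is the highest point in all 10 panels, but for Il1a it was not well above background.

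Il1b encodes IL-1β, the IL-1 receptor agonist released by activated myeloid cells. Its level was -2.47, -2.95, -2.26 and -2.32 in Ext1S100a4Cre tumours 1 to 4, against -2.12, -1.73, 1.56 and -1.39 in WT tumours 1 to 4. All Ext1S100a4Cre tumours lay below all WT tumours, narrowly so for WT tumour 1, and WT tumour 3 was far above the rest. The groups averaged -2.50 ± 0.31 and -0.92 ± 1.68 (SD, n = 4 each), a 2.99-fold lower mean in the Ext1S100a4Cre host. The difference was -1.58 (SE 0.74, 95% interval -3.29 to 0.13), with adjusted p = 0.747 by limma and p = 0.0286 by exact permutation. Groups without overlap were found for 1 of the 9 genes tested (11.1%), and for 4.52% of all genes. Without WT tumour 3 the difference was -0.76, and without Ext1S100a4Cre tumours 1 and 4 it was -1.69.

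The other Il1b probe gave the same order of hosts. It read -4.42, -5.57, -4.97 and -5.06 in the Ext1S100a4Cre tumours, against -4.24, -3.87, -0.94 and -3.60 in the WT tumours, again with no overlap. Its difference was -1.84 (SE 0.68, unadjusted p = 0.0266, adjusted p = 0.771 in limma over 39716 probes). Il1a, which encodes the related agonist IL-1α and adjoins Il1b on chromosome 2 with 0 protein-coding genes between them, was close to background. Its probe was well above background in WT tumour 4 alone, so it was left out of the limma fit and no fold is given. It read -8.31, -8.78, -8.07 and -7.92 in the Ext1S100a4Cre tumours, against -8.47, -7.44, -6.51 and -6.81 in the WT tumours, with an exact permutation p of 0.114 that compares signals mostly at background.

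Il1rn encodes the receptor antagonist that competes with both agonists. Its level was -1.39, -3.31, -1.84 and -0.30 in the Ext1S100a4Cre tumours, against -1.80, -1.07, 0.55 and -0.69 in the WT tumours. The groups overlapped widely: Ext1S100a4Cre tumour 4 was above 3 of the 4 WT tumours, and Ext1S100a4Cre tumour 2 was the lowest of all. The difference was -0.96 (SE 0.69, adjusted p = 0.753 in limma). It was -1.82 without Ext1S100a4Cre tumours 1 and 4, -0.43 without Ext1S100a4Cre tumour 2, and -0.52 without WT tumour 3. Its other probe gave -0.74.

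Within a tumour, antagonist and agonist did not keep a fixed ratio. Log2 Il1rn minus log2 Il1b was 1.07, -0.35, 0.42 and 2.02 in the Ext1S100a4Cre tumours, against 0.31, 0.66, -1.01 and 0.71 in the WT tumours. The ratio was highest in Ext1S100a4Cre tumour 4 and lowest in WT tumour 3, and the hosts overlapped (0.79 ± 1.00 and 0.17 ± 0.80, SD, n = 4 each). This ratio was chosen after the values were seen and was not tested.

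Il18 encodes an IL-1 family cytokine that caspase-1 matures and that drives interferon-γ production. Its level was -3.32, -1.51, -1.003 and -3.45 in the Ext1S100a4Cre tumours, against -2.16, -1.78, 0.56 and -1.24 in the WT tumours. Ext1S100a4Cre tumours 1 and 4 were the lowest of the 8, while tumours 2 and 3 of the same host lay among the WT tumours. The difference was -1.16 (SE 0.75, 95% interval -2.90 to 0.57), with an adjusted p of 0.747 in limma. It was -0.10 without Ext1S100a4Cre tumours 1 and 4, and -0.59 without WT tumour 3.

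Il33 encodes a nuclear alarmin of stromal and epithelial cells that signals through ST2. It varied more between tumours than any other of the 10 genes. Its level was -5.90, 1.37, -0.30 and -2.11 in the Ext1S100a4Cre tumours, against -0.45, -0.22, 1.91 and 0.21 in the WT tumours. Ext1S100a4Cre tumours 1 and 4 were lowest, and Ext1S100a4Cre tumour 2 was exceeded by WT tumour 3 alone. The difference of -2.10 (SE 1.42, 95% interval -5.37 to 1.17) was a 4.29-fold lower mean with an adjusted p of 0.747 in limma. It was -0.71 without Ext1S100a4Cre tumour 1, -1.58 without WT tumour 3, and 0.17 without Ext1S100a4Cre tumours 1 and 4. The other probe gave -1.61.

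Tnf encodes tumour necrosis factor, which activates NF-kB through 2 receptors. Its brighter probe read -4.06, -4.06, -3.72 and -4.15 in the Ext1S100a4Cre tumours, against -3.66, -3.60, -1.97 and -3.99 in the WT tumours. Apart from WT tumour 3, all 7 tumours lay within a narrow range, and the hosts overlapped. The difference was -0.69 (SE 0.41, adjusted p = 0.747 in limma), and -0.25 without WT tumour 3.

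The 2 Tnf probes differed in the size of the host difference. The dimmer probe read -6.35, -4.96, -4.27 and -5.22 in the Ext1S100a4Cre tumours, against -4.07, -3.63, -1.12 and -4.11 in the WT tumours. On this probe the groups did not overlap, and Ext1S100a4Cre tumour 1 was far below the others. Its difference was -1.97 (SE 0.72, unadjusted p = 0.0256, adjusted p = 0.771 in limma over 39716 probes), and -1.26 without WT tumour 3. Both probes were well above background in all 8 tumours.

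Il6 encodes the gp130 cytokine that drives the acute phase response. Its level was -6.67, -1.63, -3.70 and -3.92 in the Ext1S100a4Cre tumours, against -3.60, -3.12, -1.499 and -4.11 in the WT tumours. Ext1S100a4Cre tumour 1, where Il6 was not well above background, was the lowest, and Ext1S100a4Cre tumour 2 was nearly as high as WT tumour 3. The difference was -0.90 (SE 1.02, 95% interval -3.24 to 1.45), with an adjusted p of 0.818 in limma. It was -0.0001 without Ext1S100a4Cre tumour 1, -1.68 without Ext1S100a4Cre tumour 2, 0.42 without Ext1S100a4Cre tumours 1 and 4, and -0.37 without WT tumour 3. The 2 Il6 probes followed each other closely, and the other one gave -0.91.

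Osm and Lif encode oncostatin M and leukaemia inhibitory factor, gp130 cytokines whose genes adjoin each other on chromosome 11 with 0 protein-coding genes between them. The level of Osm was -2.82, -2.14, -2.16 and -1.92 in the Ext1S100a4Cre tumours, against -2.52, -2.02, -0.44 and -1.43 in the WT tumours. The level of Lif was -4.67, -4.88, -3.61 and -4.98 in the Ext1S100a4Cre tumours, against -3.90, -4.52, -3.23 and -4.36 in the WT tumours. The hosts overlapped for both genes. For Osm the difference was -0.66 (SE 0.43, adjusted p = 0.747 in limma), or -0.27 without WT tumour 3. For Lif it was -0.53 (SE 0.38, adjusted p = 0.753 in limma), or -0.27 without WT tumour 3, -0.84 without Ext1S100a4Cre tumour 3 and -0.24 without Ext1S100a4Cre tumours 1 and 4. The other Osm probe stayed near background in all 8 tumours.

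Il10 encodes IL-10, which limits macrophage and dendritic cell activation. It was dim, and its probe was well above background in Ext1S100a4Cre tumours 2 and 3 and in WT tumours 2 and 3. Its level was -7.35, -6.04, -5.28 and -6.97 in the Ext1S100a4Cre tumours, against -6.86, -5.94, -3.51 and -7.17 in the WT tumours. The hosts overlapped almost fully once WT tumour 3 was set aside. The difference was -0.54 (SE 0.83, adjusted p = 0.867 in limma). It was 0.25 without WT tumour 3 and 0.21 without Ext1S100a4Cre tumours 1 and 4.

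**Figure D2:**
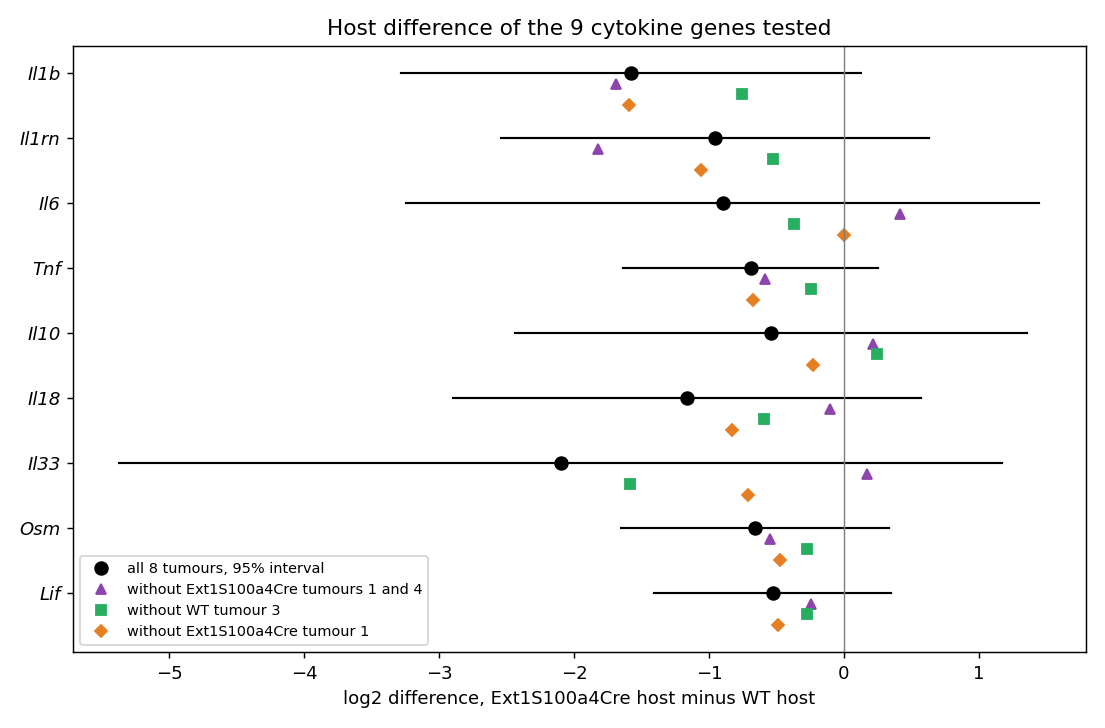
Log2 difference (x axis, Ext1S100a4Cre host minus WT host) of the 9 cytokine genes tested, with limma's 95% interval as a line, beside the values with single tumours left out. All 9 intervals include 0, and Il6, Il10 and Il33 lie above 0 without Ext1S100a4Cre tumours 1 and 4.

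For the 6 genes with 2 probes, the probes correlated across the 8 tumours with Pearson's r between 0.863 (Il1rn) and 0.997 (Il6). All 16 probes had a lower mean in the Ext1S100a4Cre host, and 3 of the 16 had groups without overlap, both Il1b probes and the dimmer Tnf probe. Of the 16, 14 passed the filter on dim probes, and over all 39716 probes that did, 4.27% had groups without overlap.

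**Figure D3:**
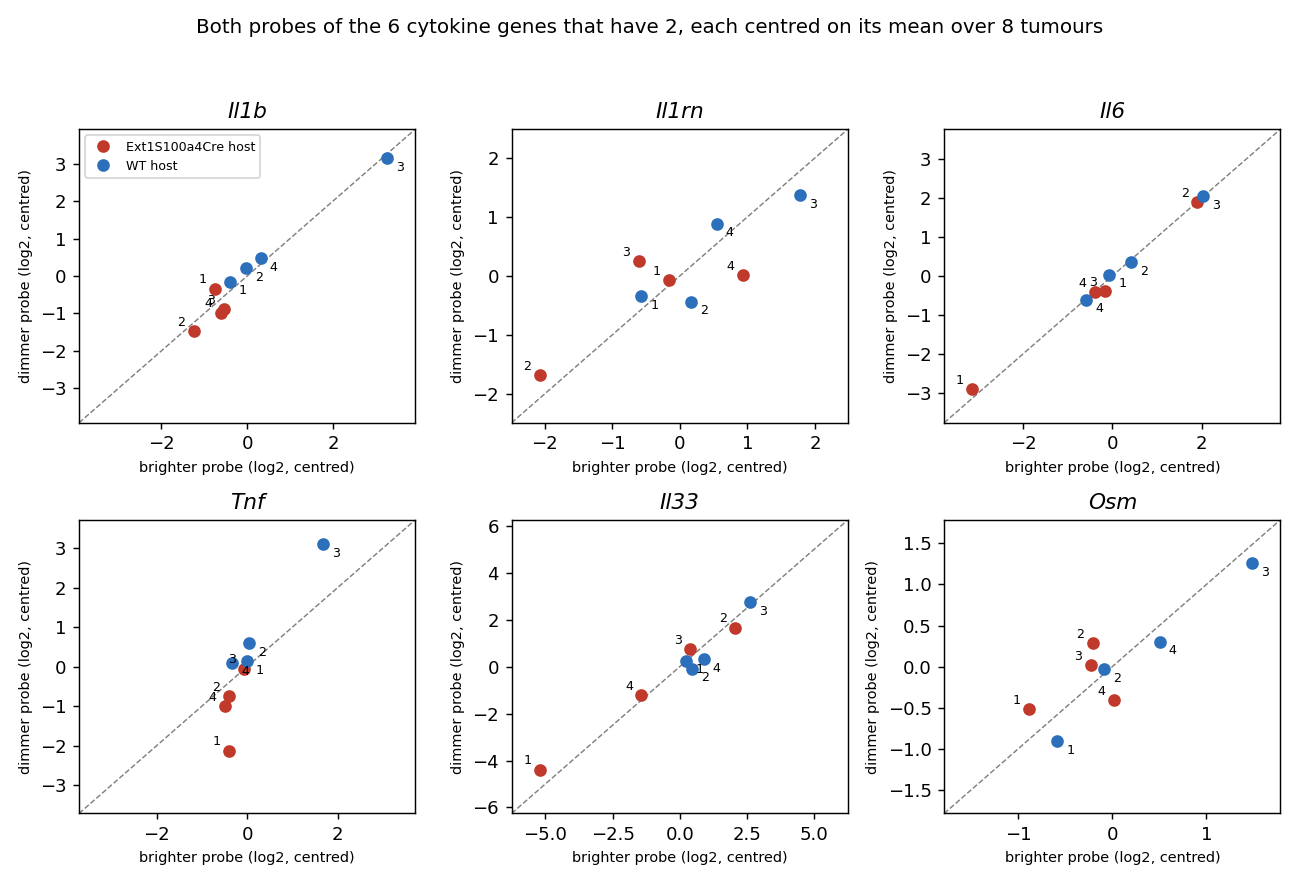
Dimmer probe (y axis) against brighter probe (x axis) of the 6 cytokine genes with 2 probes, each in log2 and centred on its mean over 8 tumours, with the numbered tumours of the Ext1S100a4Cre host in red and the WT host in blue. Points on the dashed line differ equally on both probes: Il6 and Il33 lie near it, and Ext1S100a4Cre tumour 1 lies far below it for Tnf.

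Most receptors of these cytokines had lower means too, and none passed the test. Of 8 IL-1 family receptors and decoys, 7 had a lower mean, with a median difference of -0.41. Il18r1, the IL-18 receptor chain, had a difference of -1.17 (SE 0.82), and Il18bp, the secreted inhibitor of IL-18, -0.74 (SE 0.57). The signalling IL-1 receptor Il1r1 had -1.01 (SE 0.81), and Sigirr, a brake on IL-1 family receptors, 0.13 (SE 0.12). Il1rl1, which encodes ST2, the receptor of IL-33, had -0.08 (SE 1.15). The adjusted p of these 8 lay between 0.749 and 0.989 in limma. The size of the list's mean difference rested on single tumours: -0.50 fell to -0.06 without Ext1S100a4Cre tumour 1 and to -0.07 without WT tumour 3. The sign changed, to 0.14, without Ext1S100a4Cre tumours 1 and 4.

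All 8 receptors for IL-6, IL-10 and TNF had a lower mean, with a median difference of -0.42 and adjusted p between 0.747 and 0.936 in limma. The list's mean difference of -0.53 was -0.14 without Ext1S100a4Cre tumour 1, -0.21 without WT tumour 3, and 0.07 without Ext1S100a4Cre tumours 1 and 4. The ligand-binding IL-10 receptor chain Il10ra read -3.83, -1.11, 0.80 and -0.96 in the Ext1S100a4Cre tumours, against -0.71, 0.17, 1.93 and -0.43 in the WT tumours. Ext1S100a4Cre tumour 1 was far below the rest, and tumour 3 of that host was above 3 of the 4 WT tumours. Its difference was -1.51 (SE 0.97). The partner chain Il10rb had -0.58 (SE 0.35), the TNF receptor Tnfrsf1b -0.34 (SE 0.29), and the IL-6 receptor Il6ra -0.21 (SE 0.23). The gp130 gene Il6st had -0.18 (SE 0.54).

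Genes of the inflammasome and of ligand release had lower means in 8 of 8 cases, and 0 passed. Adam17, the protease that sheds TNF, had the smallest unadjusted p of them (0.0351). It read 0.60, 0.11, 0.80 and 0.57 in the Ext1S100a4Cre tumours, against 1.13, 0.96, 0.95 and 0.78 in the WT tumours. Ext1S100a4Cre tumour 3 overlapped WT tumour 4, and the difference was -0.43 (SE 0.17, adjusted p = 0.747 in limma). The DNA sensor Aim2 had -1.44 (SE 0.87), the inflammasome adaptor Pycard -0.49 (SE 0.32) and the sensor Nlrc4 -0.60 (SE 0.41), while Nlrp3, the sensor most tied to IL-1β release, had -0.14 (SE 0.18). Casp1, which cleaves the IL-1β and IL-18 precursors, had -0.86 (SE 0.65). The list's mean difference of -0.64 was -0.35 without Ext1S100a4Cre tumour 1, -0.36 without WT tumour 3, and -0.21 without Ext1S100a4Cre tumours 1 and 4.

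Of 9 signal adaptors of the IL-1 and TNF receptors, 6 had a lower and 3 a higher mean, with a median difference of -0.09. Irak3, a macrophage inhibitor of this pathway, had -1.09 (SE 0.63), Irak2 0.21 (SE 0.12), Myd88 -0.28 (SE 0.24) and Irak4 -0.28 (SE 0.25). Their adjusted p were between 0.747 and 0.780 in limma.

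Targets of NF-kB had a lower mean in 13 of 15 cases, with a median difference of -0.67, and 0 passed. Birc3, an inhibitor of apoptosis, had a difference of -1.10 (SE 0.59), Tnfaip2 -1.15 (SE 0.71) and Nfkbiz, a co-activator induced by IL-1, -0.47 (SE 0.27). Nfkbia, the inhibitor that NF-kB itself induces, had 0.34 (SE 0.21). The list's mean difference of -0.62 was -0.33 without Ext1S100a4Cre tumour 1, -0.27 without WT tumour 3, and -0.32 without Ext1S100a4Cre tumours 1 and 4.

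Of 10 STAT3 targets, 6 had a lower and 4 a higher mean, with a median of -0.16. The list's mean difference of -0.11 turned to 0.34 without Ext1S100a4Cre tumour 1, 0.35 without WT tumour 3, and 0.73 without Ext1S100a4Cre tumours 1 and 4. Socs3, the feedback inhibitor of gp130 signalling, read 1.00, 2.40, 1.98 and 1.85 in the Ext1S100a4Cre tumours, against 2.21, 2.41, 4.03 and 2.24 in the WT tumours. WT tumour 3 was highest and Ext1S100a4Cre tumour 1 lowest, and the others lay close together. The difference of Socs3 was -0.91 (SE 0.47, adjusted p = 0.747 in limma). Bcl3 had -0.91 (SE 0.55), Junb -0.40 (SE 0.34) and the IL-4 receptor Il4ra -0.56 (SE 0.51). The 4 with a higher mean were Lcn2 (1.08, SE 1.08), Lrg1 (0.48, SE 1.27), Saa3 (0.26, SE 1.88) and Cebpd (0.13, SE 0.46).

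Related cytokines did not share a direction. Of 17 listed, 11 were bright enough to be tested, with 6 lower and 5 higher means and a median difference of -0.09. Ebi3, the shared subunit of IL-27 and IL-35, had -1.23 (SE 0.63) and Clcf1, a gp130 ligand, -0.47 (SE 0.35). Il19, of the IL-10 family, had 0.60 (SE 0.27) and Ctf1, which encodes cardiotrophin-1, 0.33 (SE 0.26). None passed the test (adjusted p 0.747 to 0.977 in limma).

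**Figure D4:**
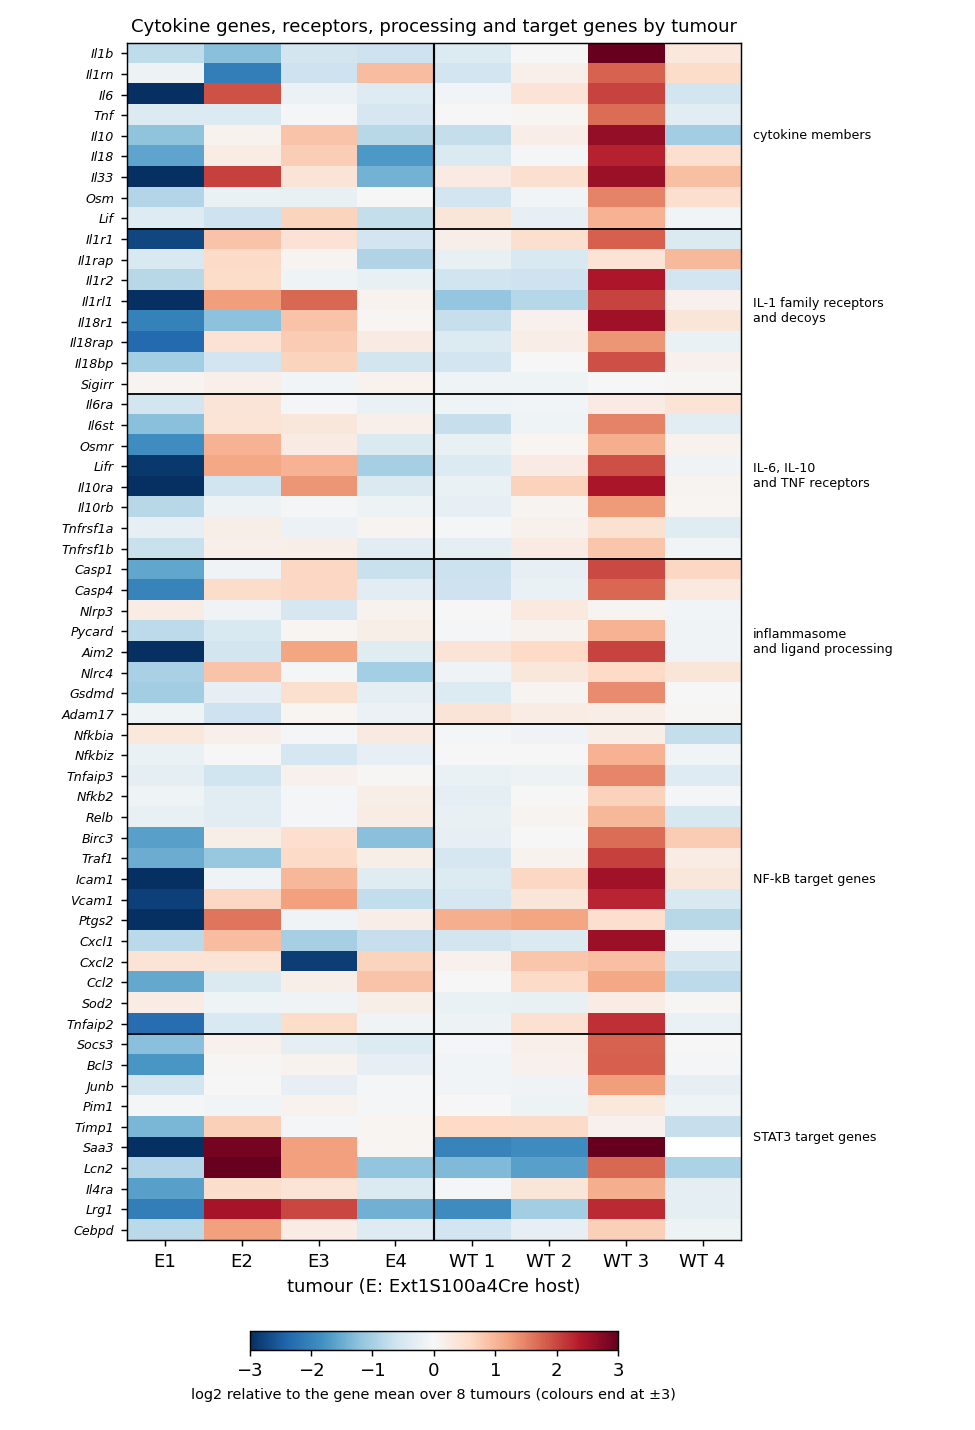
Level of the 9 cytokine genes tested and of receptor, processing and target genes (rows, grouped by list) in each tumour (columns, E for the Ext1S100a4Cre host), in log2 relative to the gene's mean over 8 tumours. Ext1S100a4Cre tumour 1 is blue and WT tumour 3 red across most rows, and the white cell of Saa3 in WT tumour 4 has no value.

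Markers of macrophages and fibroblasts also had lower means in the Ext1S100a4Cre host. All 8 macrophage markers did so, 4 of them with an unadjusted p under 0.05 in limma (Cx3cr1, Ms4a7, Msr1 and Adgre1), and 0 passed. Their summed linear signal, in units of the 75th percentile, was 4.55 to 34.4 in the Ext1S100a4Cre tumours and 22.0 to 128 in the WT tumours. All 6 fibroblast markers had a lower mean, with sums of 6.57 to 92.2 in the Ext1S100a4Cre tumours and 50.1 to 261 in the WT tumours. The mean difference of the macrophage list, -1.74, was -1.10 without Ext1S100a4Cre tumour 1 and -0.77 without Ext1S100a4Cre tumours 1 and 4. That of the fibroblast list, -1.39, was -0.54 without Ext1S100a4Cre tumour 1 and -0.06 without Ext1S100a4Cre tumours 1 and 4. Without WT tumour 3 the macrophage list had -1.21 and the fibroblast list -0.97. Each of these 14 markers was well above background on all 8 arrays. Of 6 T-cell markers 5 had a lower mean, with sums of 3.45 to 7.48 in the Ext1S100a4Cre tumours and 4.14 to 10.8 in the WT tumours. Of 6 neutrophil markers 3 had a lower mean, with sums of 65.6 to 82.9 in the Ext1S100a4Cre tumours and 68.0 to 90.4 in the WT tumours. Csf3r alone made up 73.2% to 98.9% of that sum, and the other 5 summed to 2.65 to 4.90 in the Ext1S100a4Cre tumours and 0.902 to 24.2 in the WT tumours. A sum of this kind gives most weight to bright probes. The part of these cells in the cytokine differences was not tested.

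Markers of the other cell types differed in both directions. Of 5 B-cell markers 3 had a lower mean, each with an unadjusted p under 0.05 in limma, and the sums did not overlap (0.266 to 0.418 in the Ext1S100a4Cre tumours and 0.544 to 1.60 in the WT tumours). All 4 endothelial markers had a lower mean, with sums of 0.962 to 2.80 in the Ext1S100a4Cre tumours and 2.71 to 3.70 in the WT tumours. Of 6 mast-cell markers 4 had a lower mean, with sums of 0.665 to 9.84 in the Ext1S100a4Cre tumours and 1.65 to 10.697 in the WT tumours. All 4 skeletal muscle markers tested had a higher mean, with sums of 0.193 to 7.08 in the Ext1S100a4Cre tumours and 0.196 to 0.287 in the WT tumours. The high sums were those of Ext1S100a4Cre tumours 2 and 3. Actn3 had a difference of 3.04 (unadjusted p = 0.00161, adjusted p = 0.694 in limma) without overlap. Mb, well above background on 5 arrays, had 4.08 (unadjusted p = 0.0234, adjusted p = 0.747 in limma), also without overlap, while Ckm and Acta1 overlapped. Of 3 keratinocyte markers 1 had a lower mean, with sums of 0.693 to 1.07 in the Ext1S100a4Cre tumours and 0.632 to 0.734 in the WT tumours. Of 6 colon epithelium markers, which the MC38 cells could carry, 5 had a higher mean, with sums of 20.4 to 30.1 in the Ext1S100a4Cre tumours and 19.9 to 28.2 in the WT tumours. Among them Cdx1 had a difference of 1.92 (unadjusted p = 0.0133, adjusted p = 0.747 in limma) without overlap. None of these markers passed the test.

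The list means placed the same tumours at the ends. Relative to the mean of 8 tumours, the macrophage list stood at -2.80, -0.39, 0.59 and -0.88 in the Ext1S100a4Cre tumours, against 0.12, 0.77, 2.47 and 0.12 in the WT tumours. The fibroblast list stood at -3.25, 1.05, 0.22 and -0.80 in the Ext1S100a4Cre tumours, against 0.22, 0.76, 1.96 and -0.17 in the WT tumours. Ext1S100a4Cre tumours 1 and 4 were lowest on both lists, and WT tumour 3 was highest. The neutrophil list was highest in WT tumour 3 (1.54), and the other 7 tumours lay between -0.93 and 0.36.

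Marker lists for 6 cell types were compared with the cytokine genes: macrophage, neutrophil, mast cell, T cell, fibroblast and keratinocyte. Of these lists, Il6 and Il33 followed the fibroblast markers most closely. Relations to the endothelial, B-cell, skeletal muscle and colon epithelium lists were not computed. Across the 8 tumours, Il6 correlated with the fibroblast list mean with Pearson's r = 0.960 (exact permutation p = 0.000174, adjusted p = 0.0104) and Spearman's rho = 0.976 (exact permutation p = 0.000397, adjusted p = 0.0238). For Il33, r was 0.972 (exact permutation p = 0.000645, adjusted p = 0.0193) and rho 0.833 (exact permutation p = 0.0154, adjusted p = 0.140). Without Ext1S100a4Cre tumour 1 and WT tumour 3, the 2 farthest from the list's median, r was 0.814 for Il6 and 0.8292 for Il33. With each host's mean removed, r was 0.976 for Il6 and 0.964 for Il33. Each host and each slide row held 4 tumours, too few for a value of its own. These were 2 of 60 relations computed, 10 genes against 6 marker lists, with adjustment over the 60, and the remaining 58 did not pass for r.

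Among the remaining 58, Il18 had r = 0.876 with the macrophage list (exact permutation p = 0.00833, adjusted p = 0.0714), and 0.695 without the same 2 tumours. Tnf, on its brighter probe, had r = 0.783 with the macrophage list (exact permutation p = 0.0342, adjusted p = 0.121), and 0.879 without them. Il1b had r = 0.736 with the macrophage list (exact permutation p = 0.0691, adjusted p = 0.175), and 0.493 without them. The rank order gave rho = 0.786, 0.857 and 0.810 for Il18, Tnf and Il1b (adjusted p = 0.140 each). The macrophage list was not the only one followed. With the T-cell list Tnf had r = 0.770 (exact permutation p = 0.00647, adjusted p = 0.0714). Il1b had r = 0.733 with the T-cell list (exact permutation p = 0.0210, adjusted p = 0.0927). Il33 had r = 0.857 with the mast-cell list (exact permutation p = 0.00375, adjusted p = 0.0714). Its r with the macrophage list was 0.867 (exact permutation p = 0.00811, adjusted p = 0.0714). Il6 had r = 0.806 with the mast-cell list (exact permutation p = 0.0118, adjusted p = 0.0885). With the neutrophil list Il1b had r = 0.646 and rho = -0.19 (exact permutation p = 0.126 and 0.665), so that relation rested on WT tumour 3 and, once it and WT tumour 1 were left out, r was -0.824.

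**Figure D5:**
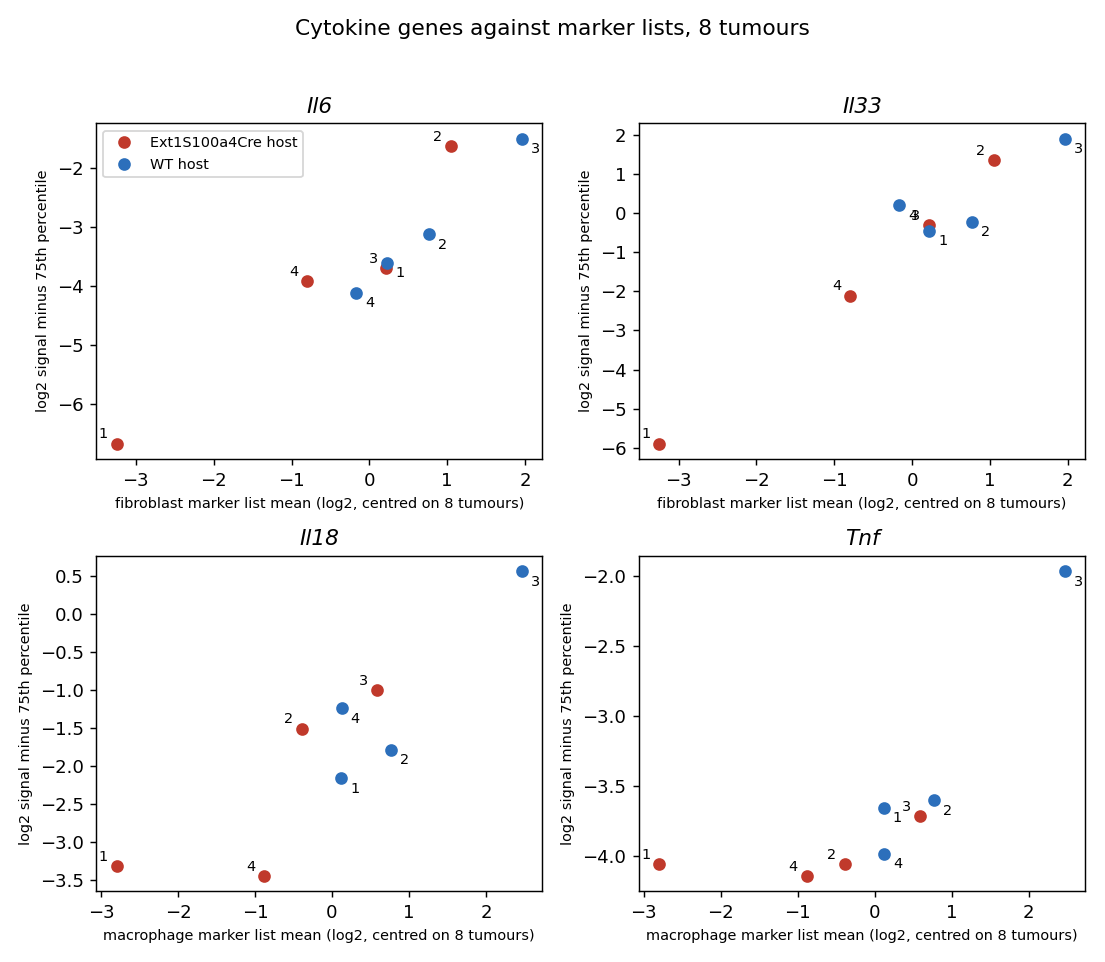
Level of Il6, Il33, Il18 and Tnf (y axis, log2 signal minus the 75th percentile) against the mean of the fibroblast or macrophage marker list (x axis, log2, centred on 8 tumours), one numbered point per tumour, Ext1S100a4Cre host in red and WT host in blue. Il6 and Il33 are lowest and highest at the ends of the fibroblast list. Tnf, on its brighter probe, spans a narrow range outside WT tumour 3, and its dimmer probe is not shown.

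Among the 10 cytokine genes themselves, 44 of 45 pairs had a positive Pearson's r over the 8 tumours, as a description in which all pairs share the same arrays and the high WT tumour 3. Without Ext1S100a4Cre tumour 1 and WT tumour 3, 26 of 45 pairs did. Il6 and Il33 had r = 0.934, and 0.700 without those 2 tumours. Il1b and Tnf had 0.941, and 0.349 without them. Il1rn and Il6 had r = -0.02 over all 8, and -0.847 in the 6 tumours left without those 2. The adjoining genes Osm and Lif had 0.508, and -0.348 without them.

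Of 15697 named genes compared, those most like each cytokine gene over the 8 tumours had Pearson's r between 0.956 and 0.995, given as a description. Il1b was most like Scin, Gpr162 and Siglece, and Tnf most like Lst1, Pofut1 and Mrgprg. Il1rn was most like Uggt1, Tnfrsf25 and Il7r. Il6 was most like Sgce, Hectd2 and Camk2g, and Il33 most like Ddah1, Pde4a and Adamtsl1. Il18 was most like Ang, Chp2 and Atp8a1, and Il10 most like Ppt1, Fam151b and Meiob. Osm was most like Setd7, Rnf152 and Btd, and Lif most like Klra1, Dcaf12l2 and Pou4f1. Without Ext1S100a4Cre tumour 1 and WT tumour 3 the likeness of the first-named gene was 0.980 for Il33 and Ddah1, 0.965 for Il6 and Sgce, 0.851 for Il1b and Scin, and 0.852 for Tnf and Lst1.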

How the data were processed

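Labelled RNA (0.5 µg per tumour) was read on 8 Agilent arrays of 1 slide, 2 tumours of each host in either slide row. Per the file headers, the deposited processed intensities came from Feature Extraction 10.7.3.1, background-subtracted and not scaled between arrays. The submitters' processing notes name version 9.1. The authors' deposited value table held the same intensities within rounding for nearly all probes. From the deposited intensities, log2 values were taken and each array's 75th percentile was subtracted. Control spots (3671 of 62976) and outlier-flagged spots were left out, replicate spots of a probe were averaged, and 39716 of 56605 probes, those well above background on at least 4 of 8 arrays, were kept. The brightest kept probe stood for a gene or transcript, and 31281 were tested.

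The host difference was fitted in limma 3.58.1 under R 4.3.3 without covariates and with Benjamini-Hochberg adjustment over all 31281. A single gene was also tested by an exact two-sided permutation test, and relations to marker lists by exact permutation over 40320 pairings. The limma step was tested on simulated data. Probes were matched to genes by RefSeq transcript through a RefSeq gene table of GRCm38.p6, used for names, chromosomes and gene order only, since the headers name mm9. Sequences were not used here. Arrays give no counts, so their number limits the precision.

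The 10 genes, the pathway lists and the marker lists (macrophage, neutrophil, mast cell, T cell, B cell, fibroblast, endothelial, keratinocyte, skeletal muscle, colon epithelium) were chosen with earlier results of these data known. From each pathway list up to 4 genes with the smallest unadjusted p, and any other member, could be named, and the 3 named genes most correlated with each cytokine gene were given. Alternatives changed the background correction, scaling, value source, filter, probe rule, blocks and the tumours included.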

Additional observations from a re-analysis of the deposited data

Results flagged for a closer look

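In 5 of 66 groups of 4 tumours, the highest or lowest tumour lay apart from the other 3 by a larger share of the group's range than Dixon's 95% limit allows, and chance marks about 1 in 20 groups. Among probes, the dimmer Il1rn probe was low in Ext1S100a4Cre tumour 2 (-7.07), where it was not well above background. The dimmer probes of Tnf (-1.12) and Il33 (-1.42) were high in WT tumour 3. Among lists, the mean of the NF-kB targets was low in Ext1S100a4Cre tumour 1 (-1.18, relative to the mean of 8 tumours), and the mean of the STAT3 targets was high in WT tumour 3 (1.45).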

How the results depend on the processing

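None of the cytokine genes was called by limma under any alternative run. The exact permutation test cannot pass the threshold with 2 tumours left out, so it says nothing there. At an unadjusted p under 0.05 limma had 3 of 9 with the replicate block, 2 with the mean of the probes, in the unscaled value table and without WT tumour 1, and 0 or 1 otherwise. Over all genes, limma called 0 of 31281, but 1 with normexp background correction, 0 to 2 with single tumours left out (2 without WT tumour 3), and 11 without Ext1S100a4Cre tumours 1 and 4. Without Ext1S100a4Cre tumour 1 and WT tumour 3, an alternative chosen after seeing the data, it called 3. The cytokine median of -0.90 ranged over -1.07 to -0.37 with single tumours left out, the weakest being without WT tumour 3. It was -0.24 without Ext1S100a4Cre tumours 1 and 4, and -0.23 without Ext1S100a4Cre tumour 1 and WT tumour 3. The number with a lower mean, 9 of 9, was 8 to 9 with single tumours left out, and 6 and 7 under those 2 settings. Of 194 alternative values for single genes, 7 changed direction. Those under a changed filter or an added block equalled the main values, so they could not change direction and say nothing on stability. Normexp moved the cytokine median to -0.54, Tnf to -0.36, Il6 to -0.23, Lif to -0.18 and Il10 to -0.05, and turned Il1a to 0.13. Without Ext1S100a4Cre tumours 1 and 4, Il6 was 0.42, Il10 0.21 and Il33 0.17. Without Ext1S100a4Cre tumour 1 and WT tumour 3, Il6 was 0.53 and Il10 0.56, and with single tumours left out Il10 ranged from -0.97 without WT tumour 4 to 0.25 without WT tumour 3. The cause was not tested. The median of all genes was 0.05, 0.10 with normexp and -0.20 in the unscaled value table. Whether the replicate numbers pair the tumours is not clear (same-number correlations of 0.493, -0.162, 0.591 and -0.245). The most alike tumour of the other host bore the same number for replicates 1 and 3, but not for 2 and 4. With the replicate block, limma called 0 genes, and 3241 had an unadjusted p under 0.05 against 2050 without it. The cytokine median was again -0.90, since a block balanced between the hosts leaves each difference as it was. Il1a and Il10, above background on 1 and 4 of 8 arrays, are limited by signal.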
